A study of Mus musculus with 17 samples.

Results

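Cga encodes the alpha subunit that the pituitary glycoprotein hormones share, and Tshb encodes the beta subunit that makes the dimer thyrotropin (TSH). Both were followed through single cells of the mouse hypothalamus to which the authors gave a cluster name, as 2 of the 23284 genes of the count table. The pair was selected on its measured values in these cells, so the levels by cluster name below are a description. A unique molecular identifier (UMI) of Cga was found in 89 cells, of Tshb in 33 and of both in 16. Set apart here are 27 Cga-high cells, each with at least 5 Cga UMIs, from 14410 other annotated cells, and among the 27 are 13 double-positive cells with at least 2 UMIs of each gene.

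The samples were 17 Drop-seq libraries from 3 food-deprived mice, kept without food for 24 hours, and 5 normal mice fed as usual. All were B6D2F1 hybrids of a C57BL6 female and a DBA2 male, with no transgene or other agent named in the labels. Batch 1 held food-deprived replicate 1 and normal replicate 3, batch 2 held food-deprived replicate 2 and normal replicate 4, batch 4 held food-deprived replicate 3, batch 3 held normal replicate 5, and batch 0 held normal replicates 1 and 2. Only batches 1 and 2 therefore hold both feeding states. The mouse is the replicate, and food-deprived replicate 3 is represented by 1 library.

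The pars tuberalis is a sheet of anterior pituitary tissue that wraps the pituitary stalk and lies against the median eminence at the base of the hypothalamus. Its endocrine cells make thyrotropin from Cga and Tshb, and they carry the melatonin receptor Mtnr1a, through which night length is read. Thyrotropin from these cells is known to act on its receptor, Tshr, in neighbouring tanycytes, where it sets the deiodinases Dio2 and Dio3 and with them local thyroid hormone. Thyrotropes of the pars distalis make the same dimer but depend on Pou1f1 and answer to thyrotropin-releasing hormone through Trhr, while gonadotropes join Cga to Lhb or Fshb.

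The sequences in front of both genes are shown because the 2 subunits of 1 hormone come from separate genes on separate chromosomes. They are the 250 bases upstream of the transcription start in the RefSeq promoter table (build GRCm38.p6), at chr4:34893529-34893778 on the + strand for Cga and at chr3:102782715-102782964 on the - strand for Tshb. Capitals mark matches to 1 of 7 motifs, each searched on both strands. These were the TATA box TATAAA, the GATA factor site GATAAG, the bicoid-class homeodomain site TAATCC (the kind Pitx factors bind), the cAMP-response site TGACGT, the E-box CACGTG, the E-box CAGCTG and the D-box TTANGTAA of clock-driven factors.
Cga: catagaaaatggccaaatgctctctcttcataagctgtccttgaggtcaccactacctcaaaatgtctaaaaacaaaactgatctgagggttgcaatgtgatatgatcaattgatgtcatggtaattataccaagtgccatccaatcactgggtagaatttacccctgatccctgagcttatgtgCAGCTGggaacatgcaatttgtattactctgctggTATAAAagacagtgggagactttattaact
Tshb: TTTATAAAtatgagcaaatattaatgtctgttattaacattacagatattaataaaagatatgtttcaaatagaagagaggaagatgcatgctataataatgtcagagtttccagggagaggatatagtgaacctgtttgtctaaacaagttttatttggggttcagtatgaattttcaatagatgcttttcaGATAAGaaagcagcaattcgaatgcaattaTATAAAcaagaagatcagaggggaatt
A TATA box stood at bases -30 to -25 of Cga and at -27 to -22 of Tshb, counted from the start site. Of 32851 promoters of the same length, 12.4% held TATAAA. Tshb held a second pair of overlapping matches to that motif at its far end, from -250 to -243. Tshb also held GATAAG, the letters bound by GATA factors, at -57 to -52, as did 6.55% of promoters. Cga held the E-box CAGCTG at -65 to -60, as did 13.0% of promoters. The letters of the other 4 motifs were not in either window, and 6.25% of promoters held the bicoid-class site, 6.47% the cAMP-response site, 6.02% the E-box CACGTG and 2.06% the D-box.

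The annotated cells of a mouse numbered 1286 to 3674 apart from the batch 0 mice, which had 129 and 158, and summed to 290861 to 12637891 UMIs per mouse. All annotated cells were matched to their library with equal counts. Between libraries, 120 cell barcodes occurred more than once. In 9 libraries Gapdh stood at 4.36 to 8.45 CPM (UMIs of the gene per 1000000 UMIs), and in the other 8 at 149 to 812 CPM. The 2 kinds of library were not split by feeding state, but normal replicate 3 came only from low-Gapdh libraries, while normal replicate 5 and food-deprived replicate 3 came only from high-Gapdh ones.

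Cga was either very high or nearly absent in a cell. Of the 89 cells with a Cga UMI, 56 had 1 UMI and 6 had 2, no cell had 3 to 10, and the other 27 had 11 to 1022. The cutoff of 5 UMIs thus falls into an empty range, with 2 UMIs just below it and 11 just above. The 27 Cga-high cells held 3543 Cga UMIs, 98.1% of the total in annotated cells, and Cga made up 0.621% to 6.98% of the UMIs of a cell (median 3.66%). Their median depth was 2923 UMIs per cell, against 2190 in the other annotated cells.

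Tshb UMIs lay mostly in the same cells. At least 1 Tshb UMI was present in 16 of the 27 Cga-high cells (59.3%, exact 95% interval 38.8% to 77.6%), against 17 of the 14348 cells without Cga (0.118%, 0.0690% to 0.190%). Of the 141 Tshb UMIs in annotated cells, 87.2% lay in Cga-high cells. The highest value outside them was 2 UMIs, in a normal replicate 5 cell of 36822 UMIs with no Cga. In MO cells, the class highest in oligodendrocyte genes (111429 CPM summed over the list) and one that should lack Tshb, 7 of 3541 cells had a Tshb UMI (0.198%) at a median depth of 2187. After every cell was thinned to 1000 UMIs, Tshb was seen in 10 of 25 Cga-high cells (40.0%) and 3 of 12901 cells without Cga (0.0233%), with 2 and 1447 shallower cells left out.

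Across the deposited names, the Cga-high cells lay almost wholly in zothers, a name that reads as cells outside the other clusters. Of the 27 cells, 25 were zothers, 1 was Astro and 1 was GABA13, and of the 13 double-positive cells 12 were zothers and 1 was GABA13. The GABA13 cell had 204 Cga and 12 Tshb UMIs with 0 UMIs of the neuronal gene Snap25, and the Astro cell had 11 Cga and 0 Tshb UMIs. Cga-high cells were 1.06% of the 2348 zothers cells. The pooled Cga level was 324 CPM in zothers, 30.7 CPM in GABA neurons and 7.96 CPM in Astro, the last 2 set by 1 cell each. It was 3.07 CPM in Epith, 1.69 CPM in Ependy, 1.51 CPM in Tany, 1.03 CPM in OPC, 0.980 CPM in MO, 0.925 CPM in Glu and 0.746 CPM in Micro. These levels came from 1 to 9 UMIs per class and their exact 95% counting intervals overlap (0.310 to 4.40 CPM in Tany, 0.448 to 1.86 CPM in MO), so no order among them was resolved. In Macro 1 UMI was counted, and in Hista, IMO, POPC and SCO none.

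Tshb reached 11.1 CPM in zothers and 2.00 CPM in GABA neurons, where 12 of 14 UMIs came from the GABA13 cell. It was 0.762 CPM in MO, 0.555 CPM in Glu and 0.497 CPM in Astro, on 7, 3 and 1 UMIs, and 6.80 CPM in Hista on 1 UMI in 17 cells. No Tshb UMI was counted in Tany, Ependy, Epith, Micro, OPC, IMO, Macro, POPC or SCO. For the 609 Tany cells, a count of 0 allows up to 1.51 CPM.

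By mouse, Cga and Tshb were present at high levels in some animals of both feeding states and nearly absent in others. Food-deprived replicates 1, 2 and 3 had 6.80, 0.0995 and 310 CPM of Cga, against 0, 0, 192, 0 and 122 CPM in normal replicates 1 to 5. Tshb stood at 0.317, 0.498 and 21.1 CPM in the food-deprived mice, against 0, 0, 0.777, 0.339 and 8.40 CPM in the normal mice. The groups overlapped for both genes, with food-deprived replicate 3 highest and normal replicate 5 high for both, and normal replicate 3 high for Cga alone. The zeros of normal replicates 1 and 2 allow up to 10.3 and 7.68 CPM at their depth, and the zero of normal replicate 4 for Cga allows up to 0.508 CPM. All intervals and such limits cover counting error only.

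The same mice held the cells. Cga-high cells numbered 1, 0 and 12 in food-deprived replicates 1 to 3, against 0, 0, 6, 0 and 8 in normal replicates 1 to 5, out of 1286 to 3674 cells in all but the batch 0 mice. Double-positive cells numbered 0, 0 and 7 in the food-deprived mice, against 0, 0, 1, 0 and 5 in the normal mice. Cells with only 1 or 2 Cga UMIs numbered 5, 1 and 13 in the food-deprived mice, against 0, 0, 32, 0 and 11 in the normal mice. Such cells were also most frequent in the mice that had Cga-high cells. Within 1 mouse the libraries differed as well: in normal replicate 3 the 3 libraries held 1, 1 and 4 Cga-high cells.

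**Figure D1:**
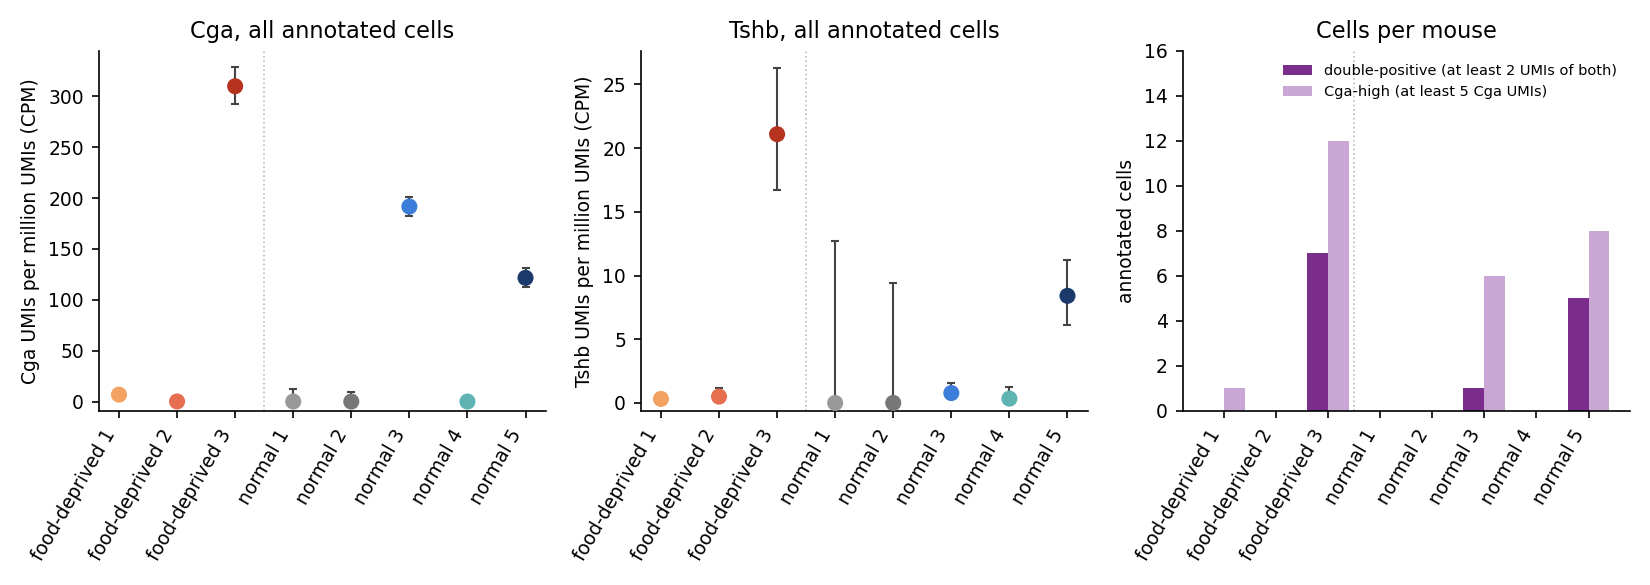
Left and middle, Cga and Tshb in CPM over all annotated cells of each mouse, with exact 95% counting intervals, and right, the number of double-positive and Cga-high cells, with the 3 food-deprived mice left of the 5 normal mice. Food-deprived replicate 3 (310 CPM) and normal replicates 3 and 5 (192 and 122 CPM) carry Cga, and only food-deprived replicate 3 and normal replicate 5 exceed 8 CPM of Tshb.

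Whether food deprivation changed these genes was tested over the 8 mice. A level summed over all cells cannot tell more hormone cells from more hormone RNA per cell. The log2 fold change of Cga, food-deprived over normal, was 0.48 with a standard error of 1.67 (edgeR's quasi-likelihood test, Benjamini-Hochberg adjusted p = 1.00). Of 14153 genes tested across all annotated cells, edgeR called 0 (0%), with 116 at an unadjusted p under 0.05, and DESeq2 called 0, with 82. Tshb did not pass the filter on low counts. Without the filter its log2 fold change was 1.22 with a standard error of 1.27 (edgeR, adjusted p = 1.00).

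The sign of the Cga difference rested on 1 animal and on the batches. Without food-deprived replicate 3 the log2 fold change was -4.43 (edgeR, adjusted p = 1.00). With batch as a block, which leaves the 2 pairs of batches 1 and 2, it was -4.74 with a standard error of 0.34 (edgeR, adjusted p = 9.68e-05), 1 of 29 genes called by that fit. Within batch 1, Cga was 6.80 CPM in the food-deprived mouse and 192 CPM in the normal mouse. Within batch 2, it was 0.0995 CPM, a single UMI, in the food-deprived mouse and 0 CPM in the normal mouse. In these 4 mice all but 1 of the Cga UMIs lay in the 2 mice of batch 1. With the block and no filter, the Tshb log2 fold change was -0.51 (edgeR, adjusted p = 0.984).

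The share of double-positive cells gave no call either. It averaged 0.181% ± 0.314 of annotated cells in food-deprived mice and 0.0609% ± 0.116 in normal mice (SD, n = 3 and n = 5). The difference of 0.121 percentage points was below the SD of the food-deprived mice and just above that of the normal mice. A two-sided exact permutation test over all 56 splits gave p = 0.732. For the Cga-high cells the shares were 0.320% ± 0.531 in food-deprived mice and 0.132% ± 0.193 in normal mice (two-sided exact permutation test, p = 0.554).

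Among the Cga-high cells themselves, Cga differed less between mice than Tshb did. Pooled over its Cga-high cells, food-deprived replicates 1 and 3 had 21491 and 32948 CPM of Cga, against 51145 and 36247 CPM in normal replicates 3 and 5. For Tshb the values were 0 and 2274 CPM in food-deprived replicates 1 and 3, against 90.6 and 2382 CPM in normal replicates 3 and 5. Food-deprived replicate 3 and normal replicate 5 thus had overlapping counting intervals for each gene. Per 100 Cga UMIs, the cells of food-deprived replicate 3 had 6.90 Tshb UMIs (exact 95% interval 5.46 to 8.61), against 6.57 (4.74 to 8.88) in normal replicate 5 and 0.177 (0.0365 to 0.518) in normal replicate 3.

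The low Tshb of normal replicate 3 was shared by its cells. They had 0, 0, 0, 0, 1 and 2 Tshb UMIs beside 28, 42, 161, 171, 269 and 1022 Cga UMIs. Without the deepest of them, of 17523 UMIs, the other 5 cells had 0.149 Tshb UMIs per 100 Cga UMIs. The single cell of food-deprived replicate 1, from the same batch, had 81 Cga and 0 Tshb UMIs. All 7 of these cells came from low-Gapdh libraries, which held 3 Tshb UMIs in 1774 Cga UMIs of Cga-high cells, while the 20 cells from high-Gapdh libraries held 120 Tshb UMIs in 1769 Cga UMIs. Batch, library kind and animal cannot be told apart here, and their part in the Tshb level was not tested.

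In the other 2 mice, Tshb varied widely from cell to cell. In food-deprived replicate 3 the 12 Cga-high cells had 0 to 26 Tshb UMIs with a median of 2, and in normal replicate 5 the 8 cells had 0 to 16 with a median of 3. Cga spanned 11 to 232 UMIs with a median of 75.5 in food-deprived replicate 3, and 30 to 145 with a median of 71 in normal replicate 5. Cells with high Cga could lack Tshb: 1 cell of food-deprived replicate 3 had 139 Cga UMIs and none of Tshb. Over the 27 Cga-high cells Spearman's rho between the 2 genes' CPM was 0.14, given as a description because cells of 1 mouse share library and depth. It was 0.33 between Tshb and Chga and 0.42 between Tshb and Timeless.

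**Figure D2:**
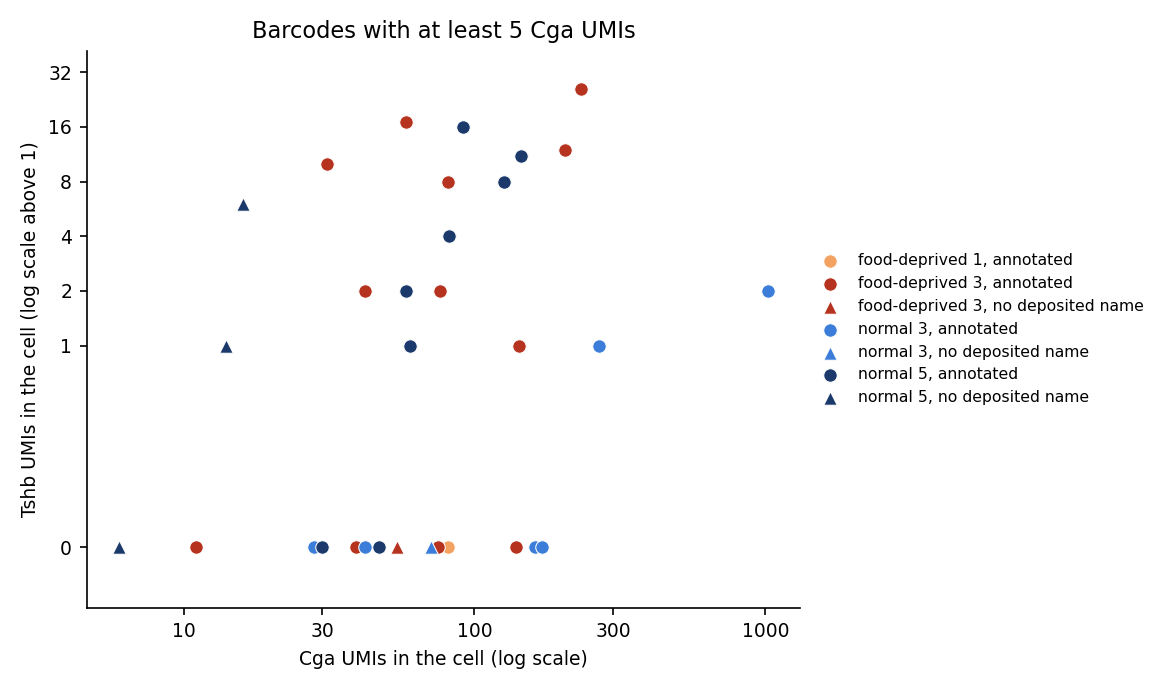
Cga UMIs (horizontal, log scale) and Tshb UMIs (vertical, log scale above 1) in each barcode with at least 5 Cga UMIs, as circles for annotated cells and triangles for barcodes without a deposited name, coloured by mouse with food-deprived mice first in the legend. The cells of food-deprived replicate 3 and normal replicate 5 reach 26 and 16 Tshb UMIs, while those of normal replicate 3 stay at 0 to 2 although 1 of them holds 1022 Cga UMIs.

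The other genes of these cells were tested without Cga and Tshb. Double-positive cells were compared with all other annotated cells of the same mouse, with the mouse as a block. Those other cells include the Cga-high cells below the Tshb cutoff. Values for other cells in this comparison therefore come partly from Cga-high cells. Only food-deprived replicate 3 (7 cells) and normal replicate 5 (5 cells) had the 5 cells required, so the comparison and its p-values rest on 2 mice, 12 cells and 36372 UMIs, with a spread that edgeR shares across genes. Of 11261 genes tested by edgeR, 43 were higher (0.382%) and 138 were lower (1.23%) at an adjusted p under 0.05, and 42 of the 43 were higher in both mice. Against cells with no UMI of either gene, 42 of 11237 genes were higher, all of them among the 43. With the 26 Cga-high cells of 3 mice (food-deprived replicate 3 and normal replicates 3 and 5), 141 of 11191 genes were higher (1.26%) and 614 lower (5.49%). Of the 43 genes, 42 were called higher in that wider set too. The wider set contains the 12 double-positive cells, so this overlap is partly built in. Both counts of higher genes include genes rare in other cells. Such genes could pass the filter on low counts only through the double-positive or Cga-high cells.

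Genes of secretory granule proteins were among those higher. Chga, which encodes chromogranin A, a granule protein of endocrine cells, stood at 35054 CPM in the double-positive cells of food-deprived replicate 3, against 382 CPM in its other cells. In normal replicate 5 it stood at 53439 CPM in double-positive cells, against 377 CPM in other cells. The log2 fold change of Chga was 6.28 with a standard error of 0.55 (edgeR, adjusted p = 9.85e-27). All 27 Cga-high cells had Chga UMIs, at 39788 CPM pooled, against 247 CPM in the other annotated cells. Chgb, for chromogranin B, was at 18548 CPM in the Cga-high cells and 496 CPM in the other annotated cells. Its log2 fold change in the double-positive cells was 4.13 (SE 0.47, edgeR, adjusted p = 3.87e-15).

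The listed genes of granules and peptide processing gave 3 of 16 members higher in double-positive cells (Chga, Chgb and Resp18) and 0 lower. Over all genes tested, 0.382% were higher and 1.23% lower. Their median log2 fold change was 0.79, against -1.67 over all genes tested. Of all genes tested, 4827 had no UMI in the double-positive cells, and the overall median is 0 when those are set at the bound that 3 counts allow. Resp18, a protein of regulated endocrine secretion, had a log2 fold change of 1.78 (SE 0.42, edgeR, adjusted p = 0.00323). In the Cga-high cells 8 of the 16 were higher and 1 was lower, where 1.26% of all genes tested were higher and 5.49% lower. Scg2, which encodes secretogranin II, had a log2 fold change of 1.36 there (SE 0.28, edgeR, adjusted p = 8.40e-05).

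The transcription factors Pitx1 and Gata2 were higher in these cells, and Pitx1 had the largest fold change of all genes named. Pitx1, a homeodomain factor of the pituitary and hindlimb, was at 467 CPM in double-positive cells of food-deprived replicate 3 and 1.36 CPM in its other cells. In normal replicate 5 it was at 389 CPM in double-positive cells and 0 CPM in other cells, where 0 UMIs allow up to 3 counts. The log2 fold change was 8.79 (SE 1.32), resting on 16 UMIs in double-positive and 5 in other cells. Cga-high cells of food-deprived replicate 3 below the Tshb cutoff held 2, 1 and 1 of these 5 UMIs. A gene this rare in other cells could pass the filter on low counts only through the double-positive cells. Its fold change is therefore a description, as are those of Figf, Cldn7, Cldn9, Asgr1, Gm5480, Ccdc68 and Scml2 below. In all 8 mice, Pitx1 had a UMI in 17 of 27 Cga-high cells and in 3 of the 14410 other annotated cells. Gata2 had a log2 fold change of 5.63 (SE 1.01, edgeR, adjusted p = 7.75e-06) and encodes a zinc finger factor known to activate the Tshb gene in thyrotropes.

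Of the 12 listed pars tuberalis genes, 8 passed the filter on low counts. Higher were 7 (among them Pitx1, Timeless, Chga, Cck, Gata2 and Isl1) and lower were 0, where 0.382% of all genes tested were higher. Members rare in other cells could pass only through the double-positive cells. The count is therefore a description, and no median is given. Among those that passed, Eya3, a coactivator that in sheep and mice is known to rise with long days, had a log2 fold change of 2.96 with a standard error of 2.06 (edgeR, adjusted p = 0.879). Mtnr1a passed only in the Cga-high fit, where its log2 fold change was 5.80 (SE 1.09). It too was rare in other annotated cells, at 0.720 CPM, so this value is a description. All 12 members had at least 1 UMI in the Cga-high cells, with Foxl2 at 3 UMIs and Lhx3 at 9.

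Genes of the circadian clock and of melatonin were mostly not called. Of 21 listed, 20 were in the table and 17 passed the filter. In double-positive cells 2 were higher (Hlf and Rorb) and 0 lower, where 0.382% of all genes tested were higher. The median log2 fold change of the list was 0.90. Over all genes it was -1.67, or 0 with genes of no UMI set at their bound. Hlf, a transcription factor under clock control, was at 1572 CPM in double-positive cells of food-deprived replicate 3 and 164 CPM in its other cells. In normal replicate 5 it was at 2103 CPM in double-positive and 106 CPM in other cells. The log2 fold change was 3.21 (SE 0.47, edgeR, adjusted p = 6.64e-09). Nr1d1, which encodes the clock repressor REV-ERB alpha, had a log2 fold change of 0.90 (SE 0.96, edgeR, adjusted p = 0.879). Timeless, whose protein works at replication forks and which has been tied to the clock, stood apart from these. It was at 1615 CPM in double-positive cells and 10.6 CPM in other cells of food-deprived replicate 3, and at 1636 CPM in double-positive cells and 9.74 CPM in other cells of normal replicate 5. Its log2 fold change was 6.76 (SE 0.57, edgeR, adjusted p = 2.21e-28).

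**Figure D3:**
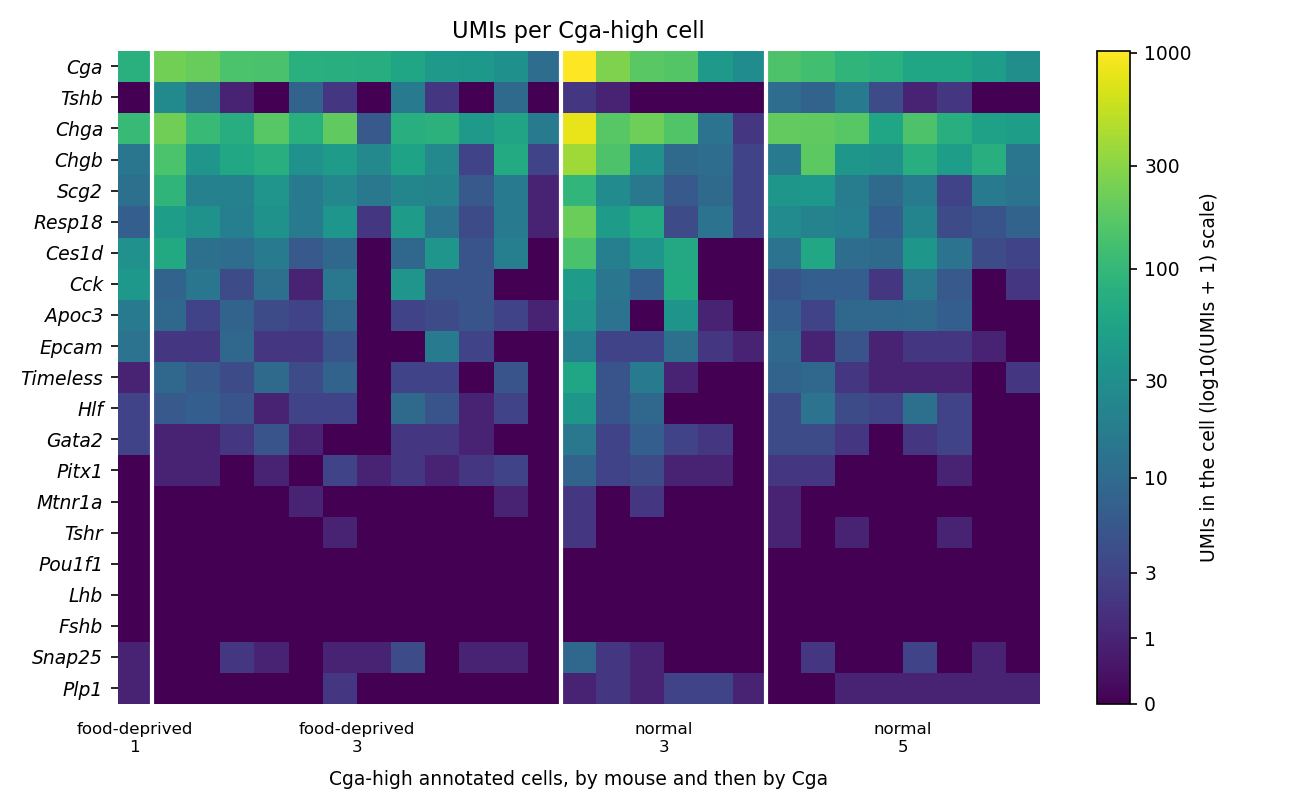
UMIs of 21 genes (rows) in each of the 27 annotated Cga-high cells (columns, grouped by mouse and ordered by Cga), on a log10(UMIs + 1) colour scale. Chga and Chgb are present in every cell, Tshb is nearly absent from the cells of normal replicate 3, and Pou1f1, Lhb and Fshb are at 0 in all 27.

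Epithelial genes were higher as well, with 4 of 9 listed members called (Epcam, Krt8, Krt18 and Cldn7), and 0 lower. The other 5 did not pass the filter, and members rare in other cells could pass only through the double-positive cells, so the count is a description. Epcam, an adhesion protein of epithelia, was at 1190 CPM in double-positive cells of food-deprived replicate 3, against 7.35 CPM in its other cells. In normal replicate 5 it was at 1402 CPM in double-positive and 3.93 CPM in other cells. Its log2 fold change was 7.30 (SE 0.65). Cldn7 and Cldn9, tight junction claudins, had log2 fold changes of 8.54 (SE 1.35) and 6.83 (SE 1.20). Because of the filter, these fold changes are descriptions too. Krt8 rested on 10 UMIs in food-deprived replicate 3 and 1 UMI in normal replicate 5.

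The gene with the smallest p was Ces1d, a carboxylesterase of lipid metabolism, at 6713 CPM in double-positive cells of food-deprived replicate 3 and 8413 CPM in those of normal replicate 5. In the other cells of the same mice it was at 18.5 and 14.2 CPM. These other cells include Cga-high cells below the Tshb cutoff, 1 of which had 38 Ces1d UMIs. Over all annotated cells that were not Cga-high, Ces1d stood at 5.97 CPM. The log2 fold change was 8.29 (SE 0.55, edgeR, adjusted p = 5.71e-47). Apoc3, an apolipoprotein known from the liver, followed with 6.87 (SE 0.55, edgeR, adjusted p = 2.74e-31). Asgr1, a subunit of the hepatic asialoglycoprotein receptor, had 8.06 (SE 1.35), given as a description because it was rare in other cells.

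Secreted factors and regulators filled the rest of the 25 genes with the largest fold changes. Figf, which encodes vascular endothelial growth factor D, had a log2 fold change of 8.77 (SE 1.18), a description because it was rare in other cells. The peptide hormone gene Cck had 4.91 (SE 0.49), the chemokine gene Cxcl14 had 4.49 (SE 0.61) and the growth factor binding protein gene Igfbp5 had 3.61 (SE 0.46), with edgeR adjusted p = 1.50e-20, 1.82e-10 and 5.29e-12. The cell cycle inhibitor gene Cdkn1c reached 5.70 (SE 0.49, edgeR, adjusted p = 3.58e-27). It stood at 2082 CPM in food-deprived replicate 3 and 6621 CPM in normal replicate 5 in double-positive cells. The potassium channel gene Kcnk3 had 4.36 (SE 0.86, edgeR, adjusted p = 9.21e-05). The other 6 (Gm5480, Ccdc68, Scml2, Ddit4l, Arrdc4 and Krt18) lay between 4.59 and 7.01. Of these, Gm5480, Ccdc68 and Scml2 were rare in other cells (2.62, 2.03 and 1.92 CPM), so their fold changes are descriptions.

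**Figure D4:**
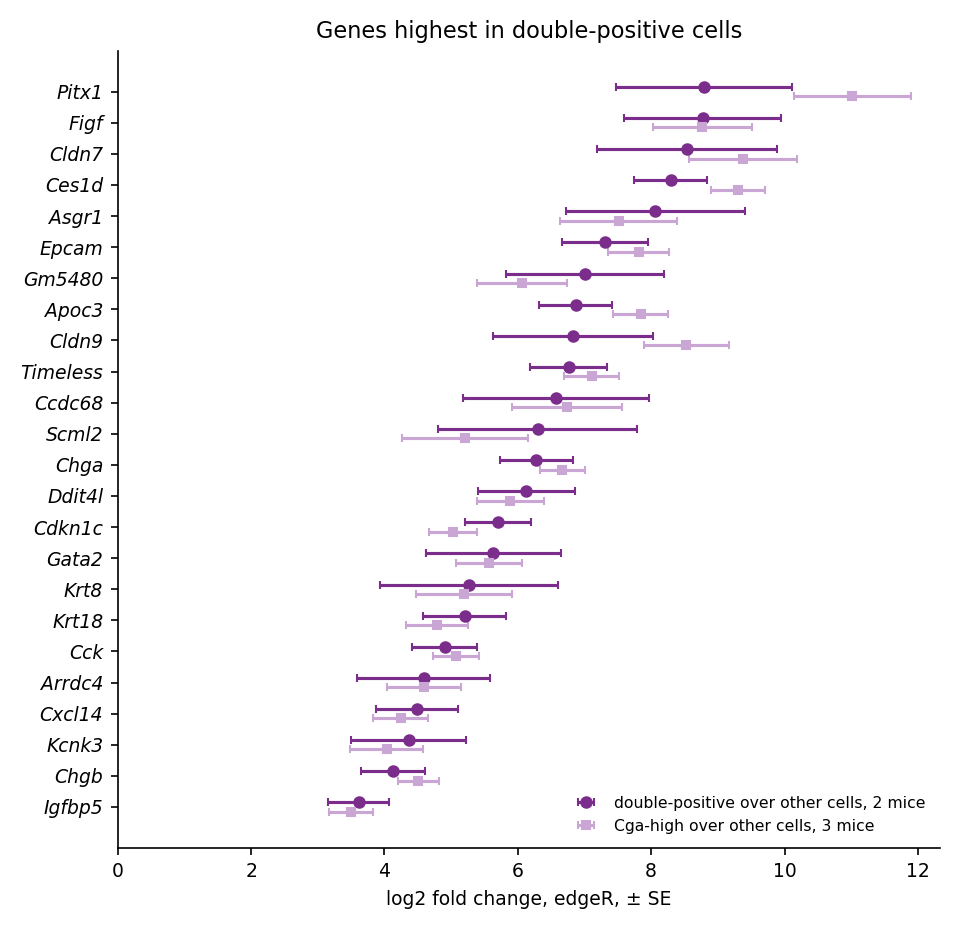
Log2 fold changes with standard errors (edgeR) of genes with the largest increase in double-positive over other annotated cells (dark circles, 2 mice), beside the same genes in Cga-high over other annotated cells (light squares, 3 mice). Double-positive values run from 8.79 for Pitx1 to 3.61 for Igfbp5, and all those drawn are positive in both fits.

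Markers of other pituitary lineages were largely absent. In the 88796 UMIs of the Cga-high cells Prl, Gh, Lhb, Fshb, Pou1f1, Tbx19, Ghrhr and Trhr had 0 UMIs, which allows up to 33.8 CPM for each. Pomc had 1 UMI, Gnrhr had 2 UMIs in 1 cell, and Nr5a1 had 1 UMI in each of 2 cells. Of the 12 listed genes, 3 passed the filter, 0 were higher and 1, Pomc, was lower, where 1.23% of all genes tested were lower. The comparison is with cells of the hypothalamus, where the summed list was highest in Glu (1136 CPM), and not with other pituitary cells. Pomc had 0 UMIs in the double-positive cells and stood at 690 and 355 CPM in the other cells of food-deprived replicate 3 and normal replicate 5. The defining receptor and factor of pars distalis thyrotropes, Trhr and Pou1f1, were thus not seen, and Mtnr1a was.

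Markers of the brain's own cell classes were low. Over all genes tested, 1.23% were lower in double-positive cells and 5.49% in Cga-high cells. Lower calls were thus more frequent in the Cga-high fit over all genes too. Of 8 neuronal genes 5 were lower and 0 higher in double-positive cells. Of 7 oligodendrocyte genes 5 were lower, of 5 ependymal genes 2, and of the 6 astrocyte, 5 oligodendrocyte precursor, 5 fibroblast and 7 blood genes 1 each, with none higher. Of the tanycyte, endothelial, mural and microglial genes, 6 of 8, 5 of 5, 5 of 5 and 5 of 7 passed the filter, and none of these was called in double-positive cells. Of the fibroblast and blood genes, 3 and 1 had passed. In the Cga-high fit more were lower: 8 neuronal, 7 oligodendrocyte, 5 ependymal, 5 astrocyte, 2 oligodendrocyte precursor, 3 tanycyte, 3 endothelial, 3 mural and 2 microglial genes, with 0 of these lists higher. Summed over a list, neuronal genes were at 450 CPM in Cga-high cells and 2912 CPM in other cells. Oligodendrocyte genes were at 450 CPM in Cga-high and 23723 CPM in other cells. The 5 genes with the most negative fold changes, Sparcl1, Pcp4, Avp, Cartpt and Ptgds, had no UMI in the double-positive cells. Against the limit of 3 counts over both mice they were at least 12.8-fold, 14.2-fold, 12.4-fold, 13.1-fold and 8.96-fold lower. The Astro-named Cga-high cell carried astrocyte genes at 17658 CPM, the highest of the 27, with a median of 0.

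Some genes of stress and of activity were called in double-positive cells, and more in the Cga-high cells, in both directions. Over all genes tested, 0.382% were higher and 1.23% lower in double-positive cells, and 1.26% and 5.49% in Cga-high cells. Of 12 endoplasmic reticulum chaperones none was called in either fit (median log2 fold change -0.41 in double-positive cells). Over all genes that median was -1.67, or 0 with genes of no UMI set at their bound. Of 12 glucocorticoid-induced genes 10 passed the filter and 2 were higher in double-positive cells, both metallothioneins, Mt1 (1.50, SE 0.43) and Mt2 (2.13, SE 0.43), with edgeR adjusted p = 0.0288 and 1.26e-04. In the Cga-high fit 4 of the 10 were higher, Mt1, Mt2, Errfi1 (1.85, SE 0.53, edgeR, adjusted p = 0.0102) and Nfkbia (1.05, SE 0.34, edgeR, adjusted p = 0.0317). There 2 were lower, Tsc22d3 (-1.88, SE 0.62, edgeR, adjusted p = 0.0395) and the kinase gene Sgk1 (edgeR, adjusted p = 4.36e-06), which had 0 UMIs in the Cga-high cells (up to 33.8 CPM) and 396 CPM in the other annotated cells. Of 14 immediate early genes 1, Junb, was higher in double-positive cells, and the median of the list was 0.60. In the Cga-high fit 4 of the 14 were higher (Junb, Btg2, Egr2 and Nr4a1, by 1.02 to 2.00 on the log2 scale) and 2 lower (Fos, -0.94, and Dusp1, -1.64).

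On the receiving side, 8 of the 11 listed genes of thyrotropin and thyroid hormone signalling passed the filter, and none of the 8 was called in double-positive cells. In the Cga-high fit 2 were lower: the nuclear receptor gene Thra (-3.54, SE 0.83, edgeR, adjusted p = 9.35e-04) and the transporter gene Slco1c1, which had 0 UMIs. The listed tanycyte genes were highest in the class Tany (3618 CPM summed) and the ependymal genes in Ependy (15156 CPM). Tshr, the thyrotropin receptor, was highest among the named classes in Tany, at 103 ± 12.02 CPM (SD, n = 6 mice), with a UMI in 132 of 609 cells. The next class was Ependy at 14.8 ± 13.1 CPM (SD, n = 6). By the mean over mice MO followed at 3.37 ± 8.83 CPM (SD, n = 8), with an SD above its mean. Pooled, MO stood at 0.544 CPM on 5 UMIs, below Astro at 1.99 CPM. In the 27 Cga-high cells, Tshr had 6 UMIs in 5 cells, or 67.6 CPM (24.8 to 147), an interval that overlaps the 86.0 to 114 CPM of pooled Tany.

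The deiodinase genes were also highest in Tany among the named classes. Dio2, which activates thyroid hormone, was at 170 ± 38.7 CPM in Tany, 58.6 ± 17.2 CPM in Astro and 44.8 ± 21.3 CPM in OPC (SD, n = 6, n = 6 and n = 7), and the last 2 did not differ beyond their spread. Dio3, which inactivates the hormone, was at 31.8 ± 25.8 CPM in Tany (SD, n = 6). Each had 1 UMI in the Cga-high cells (11.3 CPM, 0.285 to 62.7). Mtnr1a ran the other way, with 7 UMIs in 5 of 27 Cga-high cells (78.8 CPM, 31.7 to 162) and 0 UMIs in Tany. The next class was GABA at 3.04 ± 1.70 CPM (SD, n = 7).

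**Figure D5:**
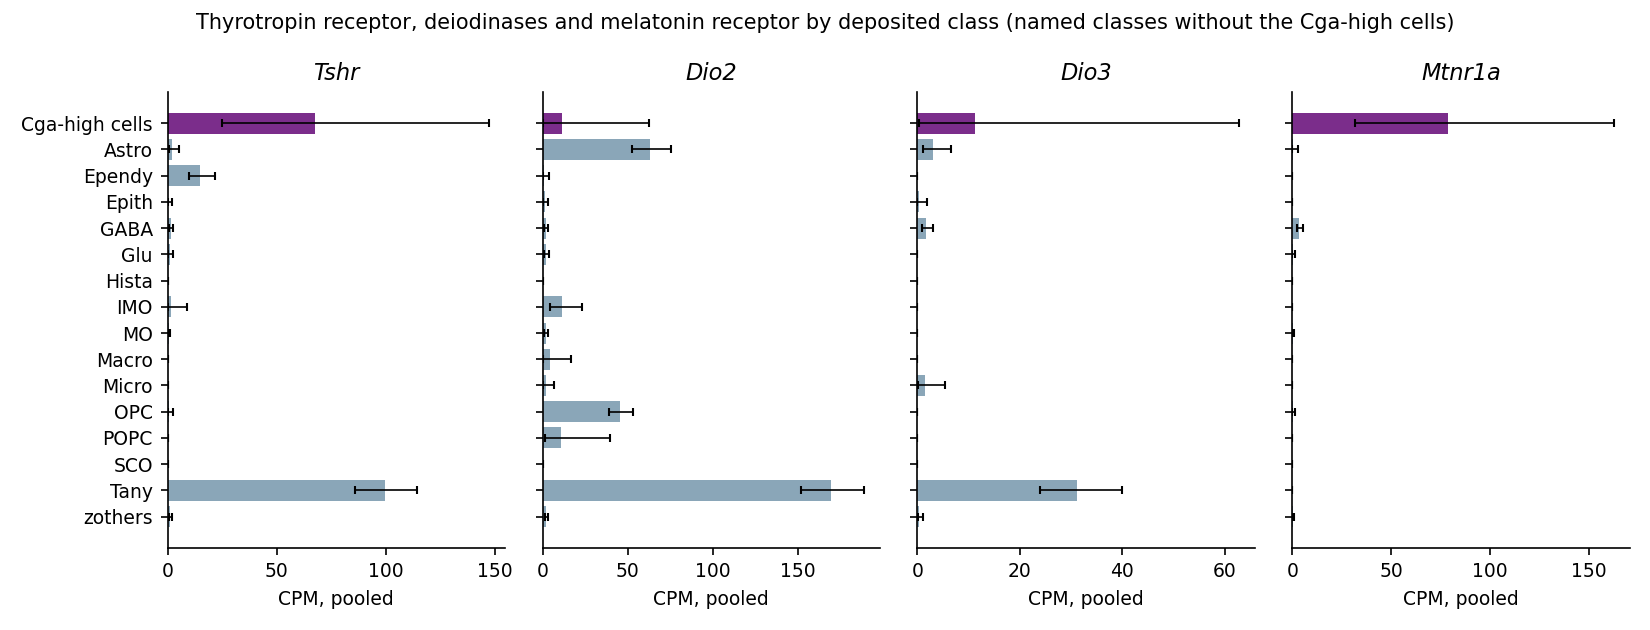
Pooled CPM of Tshr, Dio2, Dio3 and Mtnr1a in the Cga-high cells (top, purple) and in each deposited class without those cells (grey), with exact 95% counting intervals where a UMI was counted. Tshr, Dio2 and Dio3 are highest in Tany among the named classes (99.4, 170 and 31.1 CPM), and Mtnr1a is highest in the Cga-high cells (78.8 CPM).

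The genes whose pattern was most like that of the pair were looked for in 2 ways, both as descriptions. Over the 41 deposited names with at least 20 cells, the mean of log2(CPM + 1) of Cga and Tshb was close to Pitx1 (Pearson's r = 0.82, the highest), Cldn7 (0.62), Gm5741 (0.56), Prg4 (0.55), Fbxw13 (0.53), Cldn9 (0.51), Ces1d (0.50), 4632415K11Rik (0.47) and Pmch (0.47), of 15558 genes. Names differ in depth and size, and 2 of them hold all double-positive cells. Over single cells, the phi coefficient with being double-positive was high for Pitx1 (0.62, the highest), Cldn7 (0.46), Cldn9 (0.33), Figf (0.33) and Epcam (0.31). Ces1d and Apoc3 (phi 0.27 and 0.24) had a UMI in all 13 double-positive cells and in 168 and 210 of the 14424 others. Asgr1 and Gm5480 stood at 0.22 and 0.19.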

How the data were processed

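Per the labels' protocols, dissected hypothalamus was dissociated and put through Drop-seq. The deposited tables hold raw UMI counts per gene and barcode, beside which stands 1 categorical name for each cell, in a column named for an SVM. The genome build is mm9 per the submitters' processing notes, with no aligner or counting tool given in the sources used here. The depth per mouse was 290861 to 12637891 UMIs.

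Annotated cells were matched to library tables by barcode and equal counts, which resolved 161 cells with several candidate libraries. No cell filter was added and no doublet caller was run. Levels are CPM, UMIs of a gene per 1000000 UMIs of a cell or group, with exact Poisson (levels) or Clopper-Pearson (shares) intervals at 95%. Counts summed per mouse, the replicate, were tested with edgeR 4.0.16 in R 4.3.3 (TMM, filterByExpr, quasi-likelihood), with DESeq2 1.42.0 as an alternative and 0.05 as the threshold for adjusted p-values. Shares were compared by exact permutation. The edgeR fits were tested on simulated data with a fixed dispersion and no difference between mice, so bias in the real counts was not tested. In that setting the 2-mouse fit gave fold changes unbiased in their median absolute size. It called a minority of the genes made to change, very few at the smaller of the simulated sizes, and a few that were not. A gene it did not call may still differ. Mice of batches 1 and 2 are paired through the batch that the labels state.

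Genes named are Cga and Tshb, the 25 with the largest fold change among those called, higher in every mouse tested and at 50 CPM or more, the 5 most negative, the 10 most like the pair, and examples of the gene lists; a few genes under this rule are not reported here, though counts and medians of lists include them. Genes named only from the wider Cga-high fit, from single cells (Snap25) or in the listing of all genes not called were chosen after their values were seen. The members and the lists were chosen with earlier results of these data known. The comparison of feeding states inside hormone cells, and of Tshb or Cga level there, needed 2 mice per group with 5 such cells and could not be fitted, since 1 food-deprived mouse had them. Sequences are from RefSeq, where 2 of 2 genes matched.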

Additional observations from a re-analysis of the deposited data

Results flagged for a closer look

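Normal replicate 5 was the highest normal mouse for Tshb over all annotated cells, at 8.40 CPM against 0 to 0.777 CPM, and for the share of double-positive cells, at 0.266% against 0% to 0.0389%. Each gap exceeded Dixon's 95% critical value for 5 values (0.908 and 0.854 of the range), which chance alone passes in about 1 in 20 groups. Neither Cga (0.366) nor the share of Cga-high cells (0.452) passed it. The criterion takes the zeros of normal replicates 1 and 2 as measured, but these mice had 129 and 158 cells and their zeros allow up to 10.3 and 7.68 CPM, so for Tshb they cannot be set apart from normal replicate 5, and their share of double-positive cells is as poorly known. The pair was also selected on such values, so both gaps are descriptions.

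Cga was high in some barcodes that carry no deposited name. They entered 1 alternative of the feeding comparison, with all deposited barcodes (Cga log2 fold change 0.56, edgeR, adjusted p = 1.00), and no comparison in the report. Of 3863 such barcodes, 5 had at least 5 Cga UMIs, with 161 Cga and 7 Tshb UMIs together, 1 in food-deprived replicate 3 and 1 and 3 in normal replicates 3 and 5. Their median depth was 525 UMIs, against 2923 in the annotated Cga-high cells. Cga reached 86.4 CPM over all unnamed barcodes, where a count of 0 would allow 1.48 CPM.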

How the results depend on the processing

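For Cga over all annotated cells, food-deprived over normal, the log2 fold change of 0.48 turned to -4.74 with batch as a block, to -4.73 with the block and no filter (added after seeing the data) and to -0.021 without the batch 0 mice. Leaving out 1 mouse at a time gave -4.43 (without food-deprived replicate 3) to 1.32. Only the 2 blocked, paired fits were called. Tshb failed the filter, so its value without the filter stands in the report. The difference in double-positive share (0.121 percentage points) was -0.0194 within batches 1 and 2, and -0.0609 to 0.211 leaving out 1 mouse, negative only without food-deprived replicate 3. It passed the threshold in no alternative.

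Genes higher in double-positive cells (43) numbered 141 with at least 5 Cga UMIs and any Tshb, 95 against the other zothers cells, 79 with DESeq2 and 82 with no mouse block. Added after seeing the data, Cga-high against the other zothers cells gave 264, and the Cga-high fit without 1 mouse gave 67 (without normal replicate 3), 69 (without food-deprived replicate 3) and 93 (without normal replicate 5). Genes lower (138) numbered 614, 256 and 51 under the first 3 of these settings, 219 with at least 1 UMI of both, 644 for Cga-high against zothers, and 307, 222 and 353 without these mice in turn. The cause was not tested. Of the 43 higher genes, 41 were also called higher by DESeq2 and 42 against zothers, while of the 138 lower genes 48 were also called lower by DESeq2 and 100 against zothers. The setting of at least 5 UMIs of both left 1 mouse and was not run, nor was leaving a mouse out of the 2-mouse fit or any alternative for the feeding comparison inside hormone cells. Depth limits all statements on single cells: 3 UMIs are 82.5 CPM over the double-positive cells tested.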

Other observations

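Among the 32 barcodes with at least 5 Cga UMIs, named or not, 6 had fewer than 0.35 Chga UMIs per Cga UMI (0.0556 to 0.310) and the other 26 had 0.528 to 2.49. This division was made after the values were seen and was not tested. The 6 barcodes came from food-deprived replicate 3 and normal replicates 3 and 5, and 3 of them have no deposited name. With 276 Cga UMIs among them, they had 0 UMIs of Tshb, Timeless and Cck, whereas the other 26 had 130, 158 and 316 beside 3428 Cga UMIs. Their 6840 UMIs limit a count of 0 to 439 CPM, below the 1529, 1859 and 3717 CPM of the other 26. Of the 6, those in normal replicate 3 held 28, 42 and 71 of the Cga UMIs. The annotated Cga-high cells of that mouse had 0.177 Tshb UMIs per 100 Cga UMIs. For these barcodes a Tshb count of 0 cannot be told apart from the level of their mouse. Scg2 was near-equal (6871 CPM in the 6 and 6953 CPM in the 26), and Pitx1 had 2 and 35 UMIs. The only 2 Gnrhr UMIs of the annotated Cga-high cells, in normal replicate 3, lay in 1 of the 6. Gnrhr is the receptor through which gonadotropes answer gonadotropin-releasing hormone. Lhb, Fshb and Pou1f1 were at 0 UMIs in every one of the 32.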
